A study of Bos taurus with 2 samples.

Results

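Near completely methylated windows are stretches of 1 kb in which nearly every sequenced CpG was read as methylated in the sperm of both bulls of a monozygotic Holstein twin pair. They were chosen by their methylation level, so that the level itself is a description and not a finding. The autosomes of the bovine build UMD3.1 were divided into windows of 1 kb, and a window was eligible when it held 5 or more CpGs, had at least 100 summed reads and a mean depth of 10 to 60 reads per CpG in each library, and held no CpG of a run of 20 or more CpGs with gaps of at most 50 bp. An eligible window was kept when at least 93% of its summed reads were methylated in both libraries. Of 2484608 autosomal windows with a listed CpG, 1471340 were eligible and 7115 were kept. This is 0.484% of the eligible windows (95% interval 0.472 to 0.495%), or 7.115 Mb with 73828 CpGs. The run rule left out a further 155 windows that had reached 93% in both libraries.

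The study compared sperm DNA of genetically matched bulls with divergent semen quality. Bull1 and Bull2 were sires for artificial insemination that arose from natural twinning, and Bull1 had the better sperm motility in the semen records of the study. By period, the study reports this difference for the early months of semen collection only. The sequenced semen was collected at a later age, the same for both bulls and within 1 week, and its own motility is not given here. Neither bull received a treatment, and the DNA came from spermatozoa of thawed frozen semen. Each bull gave 1 whole-genome bisulfite sequencing (WGBS) library, so bull, semen quality and library cannot be told apart and no difference below has a replicate check. All intervals are exact Clopper-Pearson intervals at 95%, and they cover counting error only. A read over several CpGs was counted at each of them, so the intervals of levels are too narrow even for counting error.

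In mammals a methyl group is added to cytosine mostly where a guanine follows, and DNMT1 copies this mark to the new strand when a cell divides. Male germ cells lose most of this methylation early in their development and regain it later in that development, through the de novo enzymes DNMT3A, DNMT3B and, in rodents, DNMT3C, with the cofactor DNMT3L. Mature sperm therefore carry a highly methylated genome, in which CpG islands and many promoters stay unmethylated. Bisulfite turns unmethylated cytosine into uracil, so a methylated cytosine is still read as cytosine. The level of a window is the share of such reads among all reads at its CpGs.

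Over all autosomal CpGs the level was 74.996% in Bull1 and 70.8% in Bull2, at a mean depth of 20.3 and 18.7 reads. The account of sequencing in the study names Bull2 as the more deeply sequenced library, from mapped reads and average depth rather than counts at autosomal CpGs. The study also reports higher sperm methylation in Bull1, which is the direction of the files as labelled. Whether labels and files match thus stays in some doubt, and the bulls are named here as the labels name the files. In the eligible windows the level was 84.8% and 80.9%. The 7115 chosen windows stood at 94.5% in Bull1 (94.42 to 94.50%) and 94.1% in Bull2 (94.05 to 94.13%). Reads without methylation thus made up 5.54% and 5.91% of the reads in them. The median window had 94.3% in Bull1, with quartiles of 93.6 and 95.2%, and 93.9% in Bull2, with quartiles of 93.4 and 94.6%. Most chosen windows therefore lay within a few points of the threshold.

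Complete methylation was rarer still. No chosen window had all reads methylated in Bull1, 2 had so in Bull2, and 0 in both. Over all 1471340 eligible windows the counts were 8 in Bull1, 4 in Bull2 and 0 in both. The windows that passed in both libraries numbered 1036892 at a level of 80% (70.5% of eligible windows), 624563 at 85% (42.4%), 102586 at 90% (6.97%) and 7115 at 93%. Only 430 were left at 95%, 11 at 97%, 1 at 98% and 0 at 99%. The single window past 98% in both was chr15:7155001-7156000. Its 11 CpGs had 192 of 195 reads methylated in Bull1, or 98.5%, and 129 of 131 in Bull2, also 98.5%. The next by the lower of both levels were chr14:30660001-30661000, at 97.8% and 99.3%, and chr24:28349001-28350000, at 97.4% in each. These 3 windows had 3, 3 and 4 unmethylated reads in Bull1 and 2, 1 and 3 in Bull2.

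**Figure D1:**
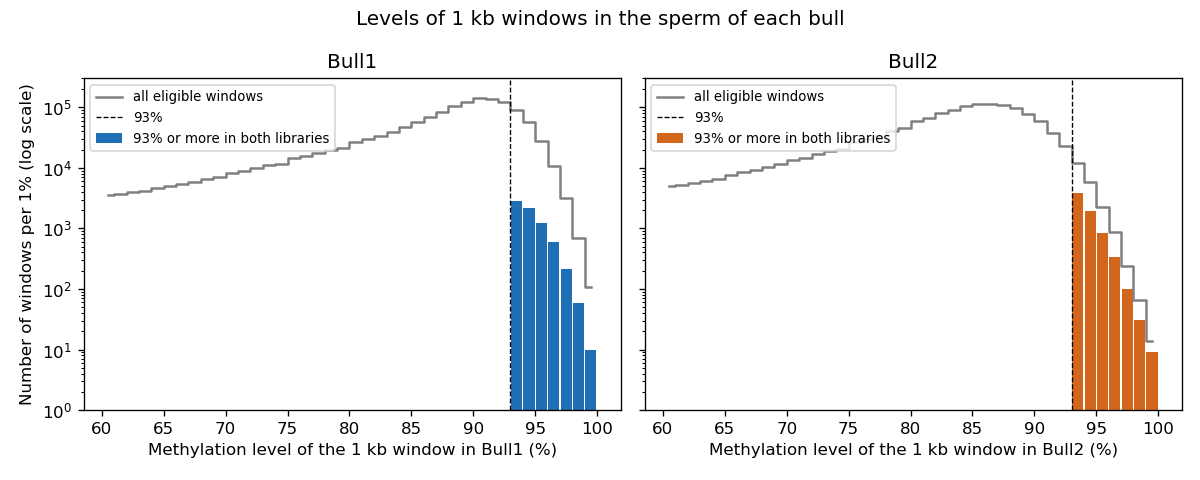
Number of 1 kb windows per 1% of methylation level (log scale) against the level of the window in percent, in Bull1 (left) and Bull2 (right), drawn from 60% upward. The grey line holds all 1471340 eligible windows, the bars hold the 7115 windows at 93% or more in both libraries, and the dashed line marks 93%. The bulk of eligible windows peaks at a lower level in Bull2 (median 84.2%) than in Bull1 (median 88.8%), and the bars fill more of the area past 93% in Bull2.

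The threshold cut through a continuous slope. Just inside it lay chr20:69209001-69210000, with 558 of 600 reads methylated in Bull1 (93%) and 377 of 402 in Bull2 (93.8%). Just outside lay chr27:4458001-4459000, with 254 of 272 reads in Bull1 (93.4%) and 332 of 357 in Bull2, or 92.997%. These windows differ from each other by less than the counting interval of either, which ran from 90.7 to 94.9% for the first in Bull1 and from 89.8 to 95.4% for the second in Bull2. The depth of single windows was too low to place most of them firmly. The lower end of the interval was at or above 90% in both libraries for 1469 chosen windows (20.6%), and its median was 90.1% in Bull1 and 89.2% in Bull2. For 7 windows it reached 93% in both, and in no chosen window did it fall below 86.1%.

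Those 7 windows were picked after their values had been seen, and their intervals take the counts at different CpGs as independent. Apart from the windows on chromosomes 15 and 14 given above, they were chr2:20924001-20925000, with levels of 98.5% in Bull1 and 97.4% in Bull2, chr23:18940001-18941000, with 99.1% and 97.3%, and chr16:26568001-26569000, with 97.3% and 97.01%. The last 2 were chr13:43130001-43131000, with 96.2% on 367 reads and 95.8% on 353 reads, and chr10:887001-888000, with 95.7% on 372 reads and 96.5% on 228 reads. They held 5 to 14 CpGs each. An annotation of UMD3.1 was not used here, so genes and repeats at these positions are not given.

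The next comparison asked how far the top windows of one bull were also those of the other. A level of 93% was reached by 191106 eligible windows in Bull1 (13.0%) but by 21112 in Bull2 (1.43%), so that Bull2 was the library that set the size of the shared list. Windows chosen in Bull1 alone and then read in Bull2 had a median of 87.3% there, with quartiles of 84.8 and 89.5%, against 84.2% for all eligible windows. Of them, 3.72% (3.64 to 3.81%) also reached 93% in Bull2, against 1.43% of all eligible windows. Windows chosen in Bull2 alone had a median of 92.0% in Bull1, against 88.8% for all. Of these, 33.7% (33.1 to 34.3%) also reached 93% in Bull1, against 13.0% of all. In both directions the second library, which had no part in the choice, was thus above its own background but mostly below the threshold. Windows that lay past 93% in Bull1 only numbered 183991, and 13997 did so in Bull2 only.

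The libraries differed little inside the shared windows. The pooled level was 0.369 points higher in Bull1, against 3.94 points in all eligible windows, a gap that the choice itself narrows because both levels had to lie between 93 and 100%. The difference of single windows had a median of 0.305 points, quartiles of -0.538 and 1.30, and ran from -5.71 to 6.10 points. Bull1 was higher in 4258 of the 7115 windows (59.8%), Bull2 in 2836, and 21 were equal, beside a background of 82.2% of eligible windows with the higher level in Bull1. Bull1 was higher in 62.4% of the chosen windows with 200 or more reads. The pooled difference was above 0 on all 29 autosomes, from 0.212 to 0.576 points, where the eligible windows had 3.56 to 4.11.

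The windows with the widest gaps show what a difference of this size rests on. At chr13:83500001-83501000, 248 of 250 reads were methylated in Bull1 (99.2%) and 243 of 261 in Bull2 (93.1%). That is 2 against 18 unmethylated reads over 12 CpGs, of which 10 were at 100% in Bull1 and 1 in Bull2. At chr3:67970001-67971000 the levels were 99.03% and 93.2%, from 103 and 117 reads. At chr8:25418001-25419000 they were 99.3% and 93.7%, from 153 and 127 reads. In the opposite direction, chr9:61845001-61846000 had 243 of 257 reads methylated in Bull1 (94.6%) and 107 of 107 in Bull2. The levels were 93.4% and 99.1% at chr5:32211001-32212000 and 93.7% and 99.03% at chr5:60940001-60941000. The intervals of Bull1 and Bull2 were apart at the window on chromosome 13, 97.1 to 99.9% against 89.3 to 95.9%. They overlapped at that on chromosome 9, 91.03 to 96.99% against 96.6 to 100%. The windows were picked from the whole list for their wide gaps, on the same reads. Intervals that are apart can come from that choice, so no firm difference is read from them.

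Single CpGs were then tested between the libraries, by a two-sided Fisher exact test on methylated and unmethylated reads with Benjamini-Hochberg adjustment over all 23978882 sites with at least 5 reads in both. No CpG of the chosen windows was a differentially methylated cytosine (DMC) at a false discovery rate of 0.05, 0 of 72413 tested, beside a background of 0.000342% of all tested sites, or 82 sites. In eligible windows 2 of 15875061 tested sites were DMCs. The study reported far more DMCs between the bulls by a Fisher exact test at the same coverage and false discovery rate. The cause of that gap was not tested. Without adjustment, 305 sites of the chosen windows (0.421%) had a p of 0.05 or less, of which 233 were higher in Bull1 and 72 in Bull2, beside a background of 2.88%. Since the choice of windows bounds their difference, nothing is read from these counts.

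Among the CpGs with at least 10 reads in both libraries, 60796 lay in the chosen windows. All reads were methylated at 31.3% of them in Bull1 and at 34.9% in Bull2, whereas over all eligible windows the shares were 13.1% and 8.01%. In both libraries at once this held for 7784 sites, or 12.8%, against 1.77% of eligible sites. Levels below 80% were found at 1.02% of sites in Bull1 and 1.82% in Bull2, and at 36 sites in both. Only 1 site in each library was below 50%, and 0 in both, beside 6.18% and 6.53% of sites in eligible windows. These shares come from the reads that chose the windows, and the threshold of 93% leaves little room for such CpGs.

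CpGs that stood low in one library were also lower in the other, by an amount that the choice of windows bounds. Sites of the chosen windows at 100% in Bull1 had a pooled level of 94.7% (94.64 to 94.79%) in Bull2, and the 613 sites at 60 to 80% in Bull1 had 91.6% (91.0 to 92.1%). From Bull2 to Bull1 the same classes gave 94.99% and 92.3%. The few sites below 60% stood apart, since 5 such sites of Bull1 had 61.5% (48.6 to 73.3%) in Bull2 and 10 such sites of Bull2 had 72.3% (65.1 to 78.8%) in Bull1. Over all eligible windows the level went from 87.7% to 76.3% between the classes of 100% and of 60 to 80% in Bull1. Because both levels of a chosen window had to reach 93%, nothing is read from its narrower range. By the rule for named sites, those with the lowest pooled level and at least 20 reads in each library were on chromosomes 13, 6 and 21. The CpG at position 53788855 of chromosome 13 had 23 of 35 reads methylated in Bull1 (65.7%) and 16 of 21 in Bull2 (76.2%), in a window at 93.5% and 95.6%. The CpG at position 36334394 of chromosome 6 had 68.0% and 73.9%, and that at 21472976 of chromosome 21 had 16 of 20 reads methylated in Bull1 and 16 of 22 in Bull2 (72.7%). All 3 were lower than their windows in both libraries.

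The number of reads behind a window moved with its chance of being on the list. Among eligible windows with 100 to under 125 reads in the library with fewer, 0.875% (0.836 to 0.914%) were near completely methylated. The share was 0.470% from 150 to under 200 reads, 0.285% from 250 to under 300 and 0.203% (0.164 to 0.249%) from 400 to under 600. From 600 reads it was 0.214%, or 7 of 3268 windows. By mean depth in the library with less it fell from 0.859% at 10 to 12 reads per CpG to 0.257% at 30 to 40, with 1 of 1655 windows at 40 to 60. The chosen windows accordingly had fewer reads than the rest, with medians of 189 in Bull1 and 158 in Bull2 against 215 and 190. Windows that passed in Bull2 only had nearly the same medians, 193 and 161, and those of Bull1 only had 205 and 181. Fewer reads are thus not particular to the shared list.

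**Figure D2:**
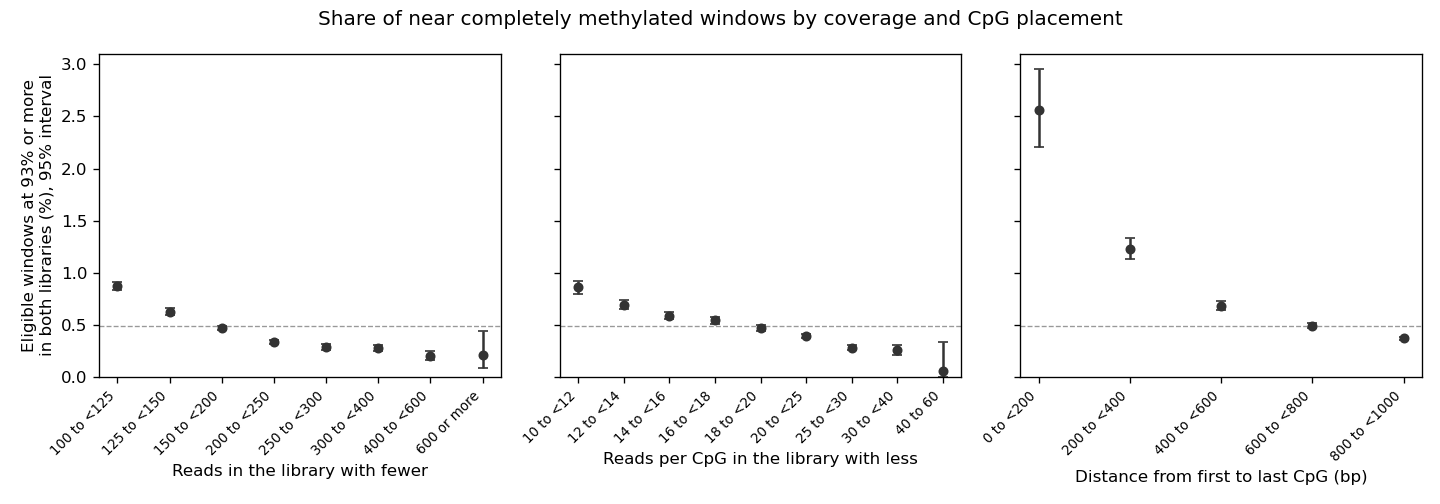
Percent of eligible windows at 93% or more in both libraries (y axis, points with exact 95% intervals) by the summed reads in the library with fewer reads (left), by the reads per CpG in the library with less depth (middle) and by the distance from the first to the last CpG in bp (right). The dashed line is the share over all eligible windows, 0.484%. The share falls along each axis, from 0.875% to 0.203% between the classes from 100 and from 400 reads and from 2.56% to 0.368% between the most packed and the most spread CpGs.

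The share also moved with the number of CpGs and with their place in the window. The chosen windows had a median of 9 CpGs, with quartiles of 7 and 12 and a range of 5 to 46, against 10 in eligible windows. The median was 15 at 200 or more reads. Eligible windows there also held more CpGs, with medians from 11 at 200 to under 250 reads to 29 from 600 reads. The share was 0.591% at 5 to 7 CpGs, 0.393% at 11 to 15 and 0.591% again (0.464 to 0.743%) from 31 CpGs upward, where 73 of 12347 windows were chosen. Of these 73 windows, 65 had a depth of 10 to under 15, where the share was 1.11% at 5 to 7 CpGs, 0.954% at 8 to 10, 0.676% at 11 to 15, 0.585% (0.526 to 0.649%) at 16 to 20, 0.590% at 21 to 30 and 0.691% (0.533 to 0.879%) from 31. A return to the share at few CpGs was thus not seen at this depth, nor at a depth of 15 to 20, where the share went down from 0.809% at 5 to 7 CpGs to 0.203% from 31, with 5 windows there. At a depth of 20 to 60, 3 of 473 windows from 31 CpGs were chosen, or 0.634% (0.131 to 1.84%), too few to place that class. In contrast, the distance from the first to the last CpG gave a steady fall. Windows with all CpGs within less than 200 bp were chosen in 2.56% of cases (2.21 to 2.96%, 180 of 7023). The share was 1.23% from 200 bp, 0.684% from 400 bp, 0.492% from 600 bp and 0.368% (0.355 to 0.382%) from 800 bp.

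The fall was also seen with CpG number and depth held alike. Within windows of 8 to 10 CpGs at a depth of 15 to 20 reads, the share went from 2.55% (1.36 to 4.32%) below 200 bp to 0.421% (0.375 to 0.471%) from 800 bp. At 200 or more reads it went from 1.93% (0.999 to 3.34%) to 0.267% (0.251 to 0.283%). The median distance from first to last CpG was 750 bp in the chosen windows and 809 bp in eligible ones, and 10.7% against 3.70% of windows spanned less than 400 bp. The DNA was broken into fragments of 200 to 300 bp, per the labels, so packed CpGs were more often read on the same molecules, and their read counts are less independent. The part of this shared reading was not tested. The 3 windows with the highest lower level were all of this kind. The CpGs of the window on chromosome 15 lay between positions 7155226 and 7155469, those on chromosome 14 between 30660167 and 30660320, and those on chromosome 24 between 28349574 and 28349773.

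The windows with the most CpGs were at the other end. At chr18:12726001-12727000, 46 CpGs had 451 of 484 reads methylated in Bull1 (93.2%) and 482 of 516 in Bull2 (93.4%). At chr5:120686001-120687000, 44 CpGs had 93.3% and 93.5%, and at chr3:110886001-110887000, 41 CpGs had 94.4% on 824 reads and 93.03% on 889 reads. All 3 windows were above each eligible window beside them, which had 83.7 to 90.4% in Bull1 and 84.7 to 87.6% in Bull2. The choice at 93% or more makes this order likely, so it is a description.

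Levels within the chosen windows also varied with the distance from one CpG to the nearest other. CpGs 2 bp from their neighbour had 95.6% in Bull1 (95.3 to 95.7%) and 95.8% in Bull2 (95.58 to 95.998%). At 11 to 20 bp the levels were 94.9% and 94.8%, at 51 to 100 bp 93.5% and 92.6%, and beyond 200 bp 93.2% (92.9 to 93.4%) and 91.4% (91.1 to 91.7%). These levels come from the reads that chose the windows, and are a description. The difference of Bull1 minus Bull2 went from -0.239 points at 2 bp, through 0.115 at 11 to 20 bp, to 1.76 points beyond 200 bp. At 200 or more reads it went from -0.348 to 3.06 points. Over all eligible windows the levels at 2 bp were 84.0% and 80.4%, the highest were at 6 to 10 bp, 85.4% and 81.5%, those beyond 200 bp were 84.4% and 79.8%, and the difference stayed between 3.58 and 4.59 points. Mean depth rose along the same axis within the chosen windows, from 18.6 to 22.6 reads in Bull1 and from 16.03 to 21.5 in Bull2, and its part was not tested.

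**Figure D3:**
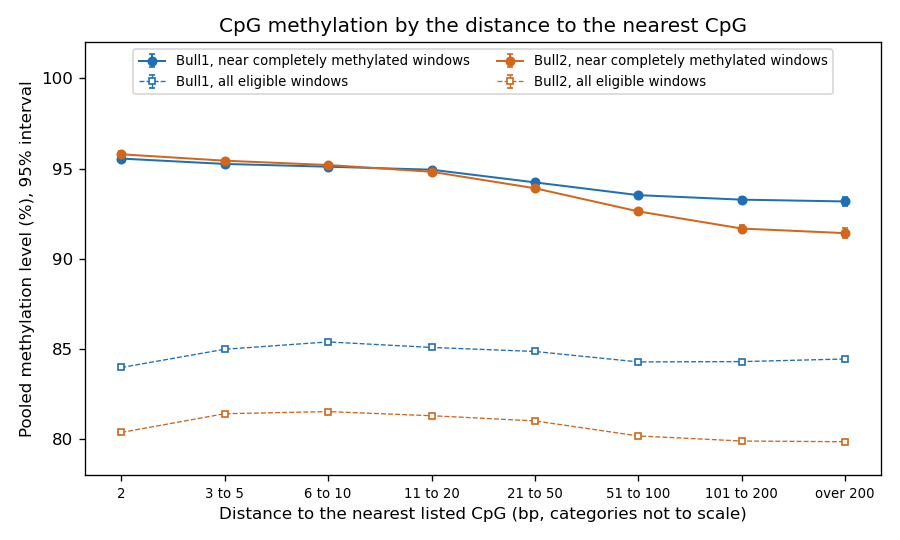
Pooled methylation level in percent (y axis, with exact 95% intervals, mostly smaller than the symbols) of CpGs classed by the distance to the nearest listed CpG in bp (x axis, categories not to scale), in Bull1 (blue) and Bull2 (orange). Filled circles are near completely methylated windows and open squares are all eligible windows. In the chosen windows the curves of both bulls meet below 20 bp and part to 93.2% and 91.4% beyond 200 bp, whereas in eligible windows Bull1 lies above Bull2 in every class.

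Near completely methylated windows mostly lay singly. They formed 7088 unbroken runs, of which 7061 were single windows, 27 were pairs and none was longer. Of 9464 eligible windows just before or after a chosen one, 54 were chosen too, or 0.571% (0.429 to 0.744%), against 0.488% over the same neighbours of all eligible windows. A pair of chosen windows is counted from both sides here, so the intervals are too narrow, and that of the next windows includes the background even so. The share was above the background at 2 kb, 0.719% against 0.490%, at 3 kb, 0.655% against 0.492%, at 5 kb, 0.533% against 0.487%, at 20 kb, 0.668% against 0.492%, at 50 kb, 0.586% against 0.489%, and at 100 kb, 0.670% against 0.496%. It was below it at 10 kb, 0.402% against 0.487%, and at 200 kb, 0.409% against 0.491%. The intervals at 2, 3, 20 and 100 kb left out the background, but with pairs counted from both sides these are no firm calls. At 200 or more reads 0 of 1427 next windows were chosen, which allows up to 0.258%, where 0.297% of eligible windows were chosen. With a level of 90% the share of next windows was 9.24% against 6.97% of eligible windows, with a level of 95% it was 0.367% (2 of 545 windows, 0.0445 to 1.32%) against 0.0292%, and with unweighted site levels it was 0.821% against 0.608%. Of the settings tried, only the minimum of 200 reads put the next windows below the eligible windows. Of 25112 blocks of 100 kb with eligible windows, 19049 (75.9%) held no chosen window, 5135 held 1, 819 held 2, 95 held 3, 13 held 4 and 1 held 5. The first 3 pairs along the genome were on chromosomes 2, 2 and 3. At chr2:30578001-30579000 the levels were 94.2% and 93.3%, and in the window that follows they were 94.7% and 93.3%. The window just before this pair had 84.6% and 79.3%. In the second pair, which starts at position 107369001 of chromosome 2, the levels were 95.5% and 93.6% in the first window and 94.9% and 93.2% in the second, with 89.3% and 80.9% before and 82.6% and 88.8% after. The pair from position 760001 of chromosome 3 had 94.4% and 94.2%, then 94.0% and 94.2%, after a window at 90.8% and 84.7%.

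The level came back towards that of the rest within 1 window. Of the 9464 eligible windows directly beside chosen ones, 54 were chosen too, and reads over a boundary are shared. Over all 9464 the pooled level was 88.8% in Bull1 and 84.6% in Bull2, against 85.5% and 81.5% beside all eligible windows. At 10 kb it was 86.9% and 82.9%, and at 200 kb 85.7% and 81.8%, close to the background of 85.2% and 81.2%. The difference between the libraries, which the choice narrows in the chosen windows, was 4.16 points in the windows directly beside. This was close to the 3.95 points beside all eligible windows. Windows that had passed in Bull1 only had neighbours at 88.6% and 84.4%, and those that had passed in Bull2 only had 88.4% and 84.4%. The neighbours of shared windows were thus nearly level with those of windows that passed in a single library.

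**Figure D4:**
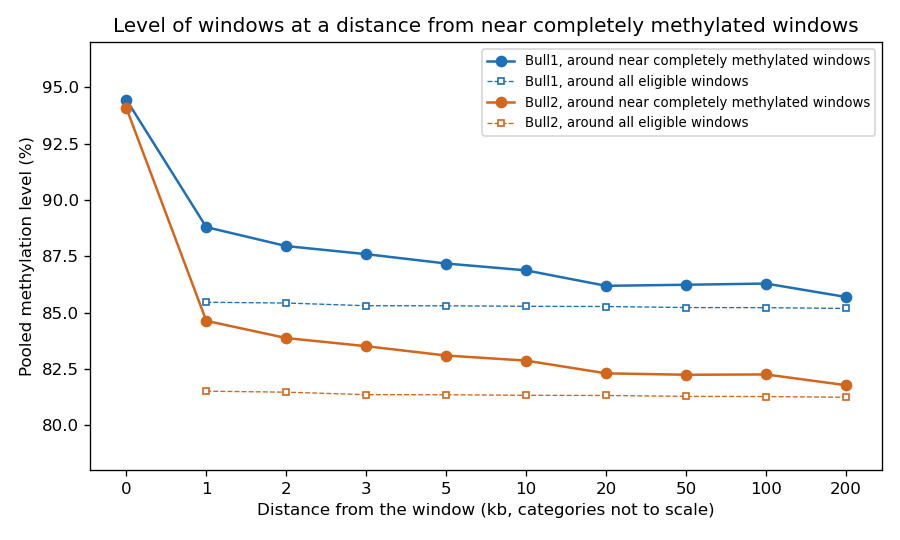
Pooled methylation level in percent (y axis) of eligible windows at a given distance in kb (x axis, categories not to scale) from near completely methylated windows (filled circles, with the windows themselves at 0) and from all eligible windows (open squares), in Bull1 (blue) and Bull2 (orange). The level falls from 94.5% and 94.1% at 0, where the choice of windows sets it, to 88.8% and 84.6% in the next window and then nears the dashed lines by 200 kb.

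The surroundings moved with the share over a longer range. Eligible windows were divided into 10 classes of equal size by the level of the other eligible windows in their block of 100 kb. By the level of Bull1, the share of chosen windows rose from 0.196% (0.174 to 0.220%) in the lowest class to 0.682% (0.641 to 0.726%) in the highest. By the level of Bull2 it rose from 0.190% to 0.705%. At 200 or more reads the rise was from 0.115% to 0.514% by the level of Bull1 and from 0.114% to 0.545% by that of Bull2. The blocks themselves were only slightly above the rest, with medians of 87.0% and 82.9% around chosen windows and 86.3% and 82.3% around all eligible windows. Medians around windows that had passed in Bull1 only were also 87.0% and 82.9%. Each library taken alone showed a rise too. From the lowest to the highest class of Bull2, windows at 93% or more went from 5.29% to 17.8% in Bull1 and from 0.613% to 2.02% in Bull2. The rise is thus not particular to the shared windows.

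Along the chromosomes the list was spread with little concentration. Bovine autosomes have their centromere at one end, where positions start. With each chromosome divided into 10 parts of equal length, the first part had the lowest share, 0.342% (0.312 to 0.374%), the parts from the third to the eighth had 0.497 to 0.539%, and the last had 0.443%. At 200 or more reads the first part had 0.256% (0.217 to 0.300%), which overlapped with the 0.267% (0.225 to 0.315%) of the fourth. Its interval included the share of 0.297% over these well covered windows. The last part became the highest with 0.345% (0.310 to 0.384%), above that share beyond its interval. Under the main rule the interval of the last part, 0.411 to 0.477%, lay below the share of 0.484%, so its place turned with the read minimum. Chromosome 11 had the highest share, 0.550% (347 of 63047 windows, 0.494 to 0.611%), and chromosome 25 the lowest, 0.388% (104 of 26772 windows, 0.318 to 0.470%). Only 4 of 29 chromosomes had an interval that left out the genome-wide share, 2 above it and 2 below, and chromosomes next to each other in the order of shares overlapped in their intervals.

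Distances to CpG-dense and to lowly methylated DNA were close to those of eligible windows. The median distance to a CpG of a run, a stretch dense in CpGs as islands are, was 32.5 kb, against 38.1 kb for eligible windows, and 60.9% against 56.9% lay within 50 kb. Very close to a run the order was the opposite, with 4.30% against 5.00% within 2 kb. To the nearest window below 20% in both libraries the median was 39 kb against 43 kb, and 2.60% against 4.49% lay within 2 kb. The eligible windows include the low windows themselves, and windows that had passed in a single library had like shares within 2 kb, 2.50% for Bull1 only and 2.94% for Bull2 only.

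A few chosen windows bordered directly on lowly methylated DNA. Of 6185 with an eligible window beside them, 7 (0.113%) lay beside a window below 20%, 42 (0.679%) beside one below 50% and 767 (12.4%) beside one below 80%. Over the 1272025 eligible windows with such a neighbour the shares were 0.781%, 3.52% and 25.3%. The eligible windows include the low windows themselves, and shares for windows that passed in a single library are not given here. The smaller shares of the chosen windows are therefore not read as a trait of theirs. The window chr1:30713001-30714000 had 97.4% in Bull1 and 93.9% in Bull2, and the window before it had 11.005% and 9.66%. The last CpG before the boundary, at position 30712748, had 30.6% and 16.7%, and the first after it, at position 30713379, had 88.2% and 90.3%. At chr27:14584001-14585000 the levels were 94.5% and 97.5%, and the window after it had 9.01% and 16.5%. There the change ran through CpGs at 55.6% and 35.3% (position 14585090) and 71.4% and 70.3% (14585126), and from position 14585370 onward no CpG was above 22.2% in either library. The window chr5:25870001-25871000 had 93.6% and 93.8% after a window at 18.8% and 12.5%. In that low window a CpG at position 25869678 already had 87.9% and 84.0%. At the window on chromosome 1 both bulls thus showed the change between the same neighbouring CpGs.

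**Figure D5:**
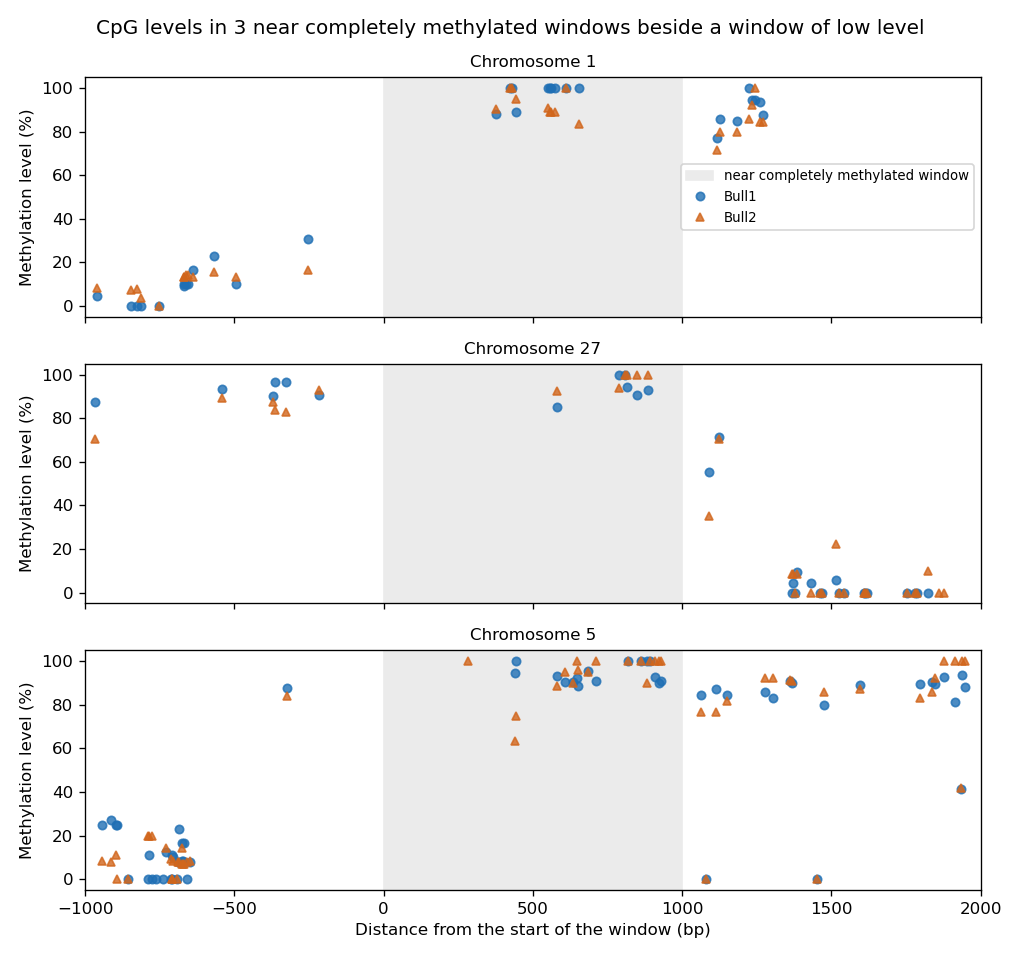
Methylation level in percent (y axis) of single CpGs with at least 5 reads against the distance in bp from the start of a near completely methylated window (x axis), for the 3 chosen windows beside the lowest eligible windows, in Bull1 (circles) and Bull2 (triangles). The chosen window is shaded. Most CpGs of the low window lie below 31% (to the left on chromosomes 1 and 5, to the right on chromosome 27) and most in the shaded window lie above 80%, in both bulls.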

How the data were processed

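Sperm DNA of Bull1 and Bull2 was measured by WGBS with 1 library each, which formed the groups. According to the submitters' processing notes and the study's methods, the authors checked and trimmed reads (FastQC 0.11.2, Trim Galore 0.4.0), aligned them to UMD3.1 with Bismark and Bowtie2 and removed duplicates. The deposited files give for each CpG the counts of methylated, unmethylated and all reads, not normalized. They also give the level as a fraction that the authors computed from these counts. Whether positions start at 0 or 1 and whether strands were summed is not stated.

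From the counts, windows were formed as described, with Python 3.11.15, numpy 2.4.6, pandas 2.3.3, scipy 1.17.1 and numba 0.67.0. The Fisher exact test per site compares libraries and not animals. The code was tested on simulated data. Windows were named by fixed rules: longest runs, most CpGs, highest lower level, largest differences, nearest the threshold, beside the lowest windows, and sites of lowest level. The members and lists were chosen with earlier results of these data known. Alternatives were another read minimum, depth range, level, averaging, grid and run rule, Bull1 thinned to Bull2, and other site tests. Sequences and annotation of UMD3.1 were not used here.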

Additional observations from a re-analysis of the deposited data

How the results depend on the processing

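Windows are given with their number, share of eligible windows, difference of pooled levels, share higher in Bull1, share of Bull1 windows also passing in Bull2, median number of CpGs, and share of next windows. With at least 200 reads there were 1828 windows, a share of 0.297%, 62.4% higher in Bull1, 2.61% passing in Bull2, a median of 15 CpGs, and 0 of 1427 next windows chosen, which allows up to 0.258%. With a level of 90% these were 102586 windows, 6.97%, 1.05 points, 69.4%, 17.2%, 10 CpGs and 9.24%. With a level of 95% they were 430 windows, 0.0292%, 0.130 points, 55.1%, 0.999%, 8 CpGs and 0.367% of next windows. Unweighted site levels gave 0.608% of windows, 0.757 points, 58.6%, 4.56% and 0.821% of next windows. Their 8941 windows included 76.4% of those reported. Bull1 thinned to the reads of Bull2 moved only the share passing in Bull2, to 3.64%, but 88.0% of the reported windows were among its 6974. The cause of these moves was not tested, apart from the levels of 90% and 95%, which change the list by construction. A depth of 10 to 40, runs kept and windows shifted by 500 bp gave 7082, 7270 and 7065 windows and moved none of these values beyond its counting interval. DMCs were 0 under every other read minimum, level, coverage and false discovery rate tried, and 305 at an unadjusted p of at most 0.05. The values at 200 or more reads by span, place, surroundings and spacing were chosen after seeing the data. No paired analysis was possible because a single library stands for either bull. Depth limits the placing of single windows, whose intervals span several points.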

Other observations

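CpGs with at least 10 reads in both libraries and a level below 80% in both numbered 36 among the 60796 such CpGs of the shared windows. In windows that passed in Bull1 only there were 6866 such sites among 1686722, and in windows that passed in Bull2 only there were 389 among 122085. All reads were methylated in both libraries at 12.8% of CpGs in the shared windows, at 3.61% in those of Bull1 only and at 5.62% in those of Bull2 only. Over all eligible windows 1749574 of 13895885 sites were below 80% in both, and 1.77% had all reads methylated in both. The lists are defined by the levels of both libraries, so these counts and shares are a description. In windows that passed in a single library the level at the widest spacing was below that at 2 bp. The fall from class to class was steady only for Bull2 in windows that passed in Bull2 only. In windows that passed in Bull2 only, the level of Bull2 fell from 95.6% at 2 bp to 91.5% beyond 200 bp, and that of Bull1, which the list holds below 93%, fell from 91.0% to 89.8%. In windows that passed in Bull1 only, the level of Bull1 fell from 95.3% to 93.3% and that of Bull2 from 88.2% to 85.7%.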
